A study of Mus musculus with 10 samples.

Results

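Inflammasome genes were examined in ARG1+ and ARG1- myeloid cells sorted from the spinal cord of mice with experimental autoimmune encephalomyelitis (EAE), a model of neuroinflammation. The set held the sensors Nlrp3, Nlrc4, Aim2 and Mefv, the adaptor Pycard, the caspases Casp1 and Casp4 and the pore protein Gsdmd. Members were taken by gene symbol from the count table, which gave 8 of 55487 genes. All 8 passed the filter on low counts, which kept 13740 genes above 1 CPM (a count relative to the total of its library) in 3 or more libraries. Levels are given as CPM with library totals adjusted by the TMM factors of edgeR.

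The animals were 5 male C57BL/6 mice of 8 to 12 weeks carrying Arg1tm1Lky, an allele in which yellow fluorescent protein (YFP) is driven from the Arg1 locus, and all were taken at peak disease after immunization with a myelin oligodendrocyte glycoprotein peptide. From each animal, viable CD3- Ly6G- CD45+ CX3CR1+ cells were sorted into a YFP+ (ARG1+) and a YFP- (ARG1-) fraction, giving 5 libraries per group from the same animals m2, m6, m234, m235 and m236. Every ARG1+ library came from 200000 cells and every ARG1- library from 100000 cells, so input number and group cannot be told apart. YFP reports Arg1 promoter activity rather than arginase 1 protein, and the gate does not separate monocyte-derived cells from the resident macrophages of the CNS borders. None of its markers excludes microglia or dendritic cells either, and genes of both are given below.

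Inflammasomes are cytosolic complexes in which a sensor that has met a microbial product, a damaged membrane or misplaced DNA assembles with the adaptor ASC and recruits caspase-1. Caspase-1 cuts the precursors of IL-1β and IL-18 and also cuts gasdermin D, whose N-terminal part forms pores in the plasma membrane and causes pyroptosis. Caspase-11, encoded in mice by Casp4, cuts gasdermin D directly when it meets bacterial lipopolysaccharide in the cytosol, and all of these steps are governed by cleavage and assembly that mRNA levels do not report.

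Total counts ran from 8396863 to 35455643 per library, and the smallest was the ARG1- library of m234. Arg1 was at 588 to 1049 CPM in ARG1+ libraries against 14.3 to 27.0 CPM in ARG1- libraries, in the direction of the labels. The macrophage genes Adgre1, Csf1r, Itgam, Ptprc, Fcgr1, Mertk and Cx3cr1 summed to 4285 to 4791 CPM in ARG1+ and 4350 to 6005 CPM in ARG1- libraries. Single genes of this sum differed. By edgeR, 2 were higher in ARG1+ cells, Itgam (log2 fold change 0.35, adjusted p = 0.0385) and Mertk (0.42, adjusted p = 0.0327), and 0 were lower. Cx3cr1, a gene of the gate, averaged 140 and 282 CPM (-1.01, adjusted p = 0.153). The ARG1- library of m234 also stood apart in its cell type markers. Its 8 microglial genes summed to 3202 CPM, against 876 to 1548 CPM in the other ARG1- libraries, and its 10 dendritic cell genes to 127 CPM, against 34.7 to 65.1 CPM. For this reason, values without that library are given below for the members they touch.

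Of the 8 members, 2 were lower in ARG1+ than in ARG1- cells and 0 were higher at an adjusted p below 0.05 (edgeR's quasi-likelihood test, Benjamini-Hochberg adjustment over all 13740 genes). The same test placed 6.82% of all genes higher and 6.15% lower. The 2 were Mefv, which encodes the RhoA-coupled sensor pyrin, and Gsdmd, which encodes the pore-forming substrate. Neither changed more than 2-fold, so that 0 members passed the limit of 1 on the absolute log2 fold change, as 0.56% (higher) and 0.888% (lower) of all genes did. The median log2 fold change of the 8 members was -0.11, and that of all tested genes was 0.00. Because libraries of the same animal deviated together, a fit with the animal as a block was also made. It called 3 members lower (Mefv, Casp4 and Gsdmd) and 1 higher (Pycard), while calling 18.3% of all genes lower and 16.8% higher. In these bulk libraries, fewer cells carrying a transcript and less transcript per cell cannot be told apart.

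**Figure D1:**
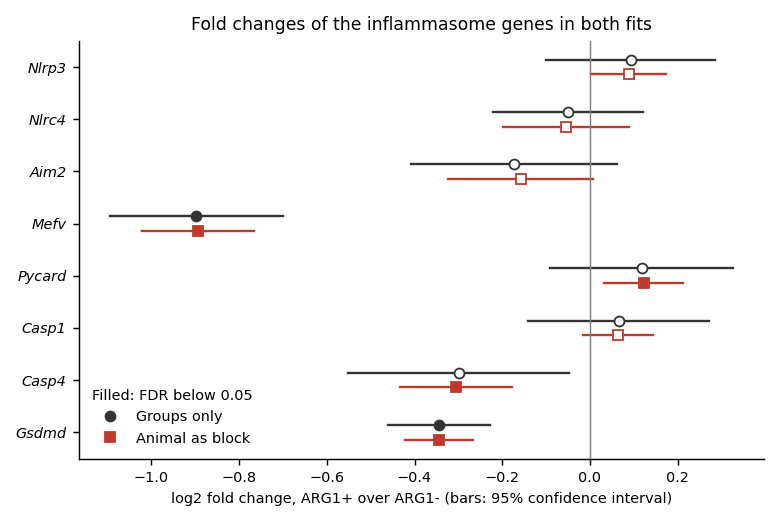
Log2 fold change of each member in ARG1+ over ARG1- cells with its 95% confidence interval, from the fit on groups only (circles) and the fit with the animal as a block (squares), filled where the adjusted p was below 0.05. Mefv lies near -0.90 and Gsdmd near -0.34 in both fits, while Casp4 and Pycard are filled only in the blocked fit.

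RefSeq promoter windows (GRCm38.p6, from 250 bases before to 50 bases after the annotated start) were on hand for 7 of the 8 members, in 9 windows. Gsdmd, a member called lower, had no window, so its promoter was not searched for any of the sites below. For Mefv, Casp4, Casp1 and Nlrp3, 1 window each is shown, the one at the lower coordinate where Casp4 and Nlrp3 had 2, because they set the most changed sensor beside a sensor that was not called, and a caspase that was lower in the paired fit beside its neighbour that was not. Mefv lies on the minus strand of chromosome 16 and the others on plus strands, with Casp1 and Casp4 next to each other on chromosome 9. Capitals mark letters matching the NF-kB consensus on either strand, with overlapping matches joined.
Mefv, chr16:3718075-3718374, minus strand: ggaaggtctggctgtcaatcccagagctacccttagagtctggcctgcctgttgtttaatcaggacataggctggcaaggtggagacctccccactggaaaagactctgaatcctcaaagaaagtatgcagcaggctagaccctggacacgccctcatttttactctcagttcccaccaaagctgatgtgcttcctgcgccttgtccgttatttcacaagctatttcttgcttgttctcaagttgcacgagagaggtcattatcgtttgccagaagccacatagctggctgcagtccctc
Casp4, chr9:5308599-5308898, plus strand: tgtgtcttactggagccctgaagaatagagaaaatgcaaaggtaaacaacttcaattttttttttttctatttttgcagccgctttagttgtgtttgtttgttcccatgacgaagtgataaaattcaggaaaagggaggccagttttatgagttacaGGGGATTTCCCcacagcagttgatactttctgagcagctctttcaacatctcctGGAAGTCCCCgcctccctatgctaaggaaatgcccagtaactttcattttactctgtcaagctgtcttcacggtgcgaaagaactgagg
Casp1, chr9:5298267-5298566, plus strand: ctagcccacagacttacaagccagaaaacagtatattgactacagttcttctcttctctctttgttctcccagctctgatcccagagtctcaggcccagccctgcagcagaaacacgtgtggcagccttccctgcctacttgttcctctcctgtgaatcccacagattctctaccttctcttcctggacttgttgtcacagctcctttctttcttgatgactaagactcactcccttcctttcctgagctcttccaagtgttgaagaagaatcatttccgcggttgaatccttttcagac
Nlrp3, chr11:59541319-59541618, plus strand: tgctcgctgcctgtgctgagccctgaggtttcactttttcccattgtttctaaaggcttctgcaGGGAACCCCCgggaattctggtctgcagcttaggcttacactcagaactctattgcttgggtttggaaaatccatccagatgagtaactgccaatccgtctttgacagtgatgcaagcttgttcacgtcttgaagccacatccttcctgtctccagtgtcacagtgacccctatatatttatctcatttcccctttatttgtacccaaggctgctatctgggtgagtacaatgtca

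The NF-kB consensus was in both overlapping windows of Casp4 and in 1 of the 2 windows of Nlrp3, and in no other member's window. It was in 8.46% of all 32851 windows and in 10.3% of the 11511 windows of tested genes. The interferon-stimulated response element, searched as GAAANNGAAA on both strands, was in 0 of the 9 member windows and in 3.44% of all windows. The PU.1 site, searched as GAGGAAGT on both strands, was in the windows of Aim2 and Pycard, and in 3.20% of all windows. Of the windows of tested genes, 3.38% held the interferon-stimulated response element and 3.63% the PU.1 site. These matches describe letters and were not tested as binding sites.

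Pyrin, the product of Mefv (ENSMUSG00000022534, chr16:3707218-3718097), senses the inactivation of the GTPase RhoA and is best known from familial Mediterranean fever. Mefv stood at 47.2, 44.6, 45.3, 52.7 and 54.5 CPM in the ARG1+ libraries of m2, m6, m234, m235 and m236 and at 97.5, 90.9, 72.5, 101 and 91.1 CPM in their ARG1- libraries. The ranges of the groups did not meet, as was so in either direction for 11.3% of all genes, and the lowest ARG1- value was that of m234. The means were 48.8 ± 4.50 and 90.7 ± 11.1 CPM (SD, n = 5 each), which made Mefv 46.3% lower in ARG1+ cells (95% confidence interval of the change -53.1% to -38.5%). The log2 fold change was -0.90 (SE 0.09, adjusted p = 1.83e-04 by edgeR's quasi-likelihood test), and the exact two-sided permutation test over libraries gave p = 0.00794, the smallest that 5 against 5 allows. This permutation test, here and below, took the libraries as independent and did not use the pairing within animals. Within animals the log2 difference ran from -1.05 in m2 to -0.68 in m234. Without the ARG1- library of m234 the log2 fold change was -0.96.

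Nlrp3 (ENSMUSG00000032691, chr11:59541568-59566956), the sensor of potassium efflux and of lysosomal and membrane damage, was the member with the most counts. Its levels were 534, 509.6, 561, 657 and 483 CPM in ARG1+ cells and 507, 476, 548, 569.8 and 473 CPM in ARG1- cells of m2, m6, m234, m235 and m236. The groups overlapped, the highest library of each group came from m235, and each animal's ARG1+ value lay slightly above its ARG1- value. Its log2 fold change was 0.09 (95% confidence interval -0.10 to 0.28, adjusted p = 0.515 by edgeR), an interval of -6.65% to 21.8% in linear terms. The blocked fit gave 0.09 with an adjusted p of 0.101 by edgeR, and of the 5 blocked fits without 1 animal, the one without m234 alone fell below the threshold, at 0.0499.

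The DNA sensor Aim2 (ENSMUSG00000037860, chr1:173350879-173466040) stood at 34.9, 35.5, 38.1, 35.9 and 39.1 CPM in ARG1+ cells and at 39.0, 36.3, 56.6, 36.6 and 40.4 CPM in ARG1- cells of m2, m6, m234, m235 and m236. Apart from the ARG1- library of m234, all values fell between 34.9 and 40.4 CPM, and in each animal ARG1+ cells were the lower. Its log2 fold change was -0.17 (95% confidence interval -0.41 to 0.06, adjusted p = 0.304 by edgeR). It shrank to -0.05 (adjusted p = 0.576) without the ARG1- library of m234, in which microglial and dendritic cell markers were also highest, and their part in the Aim2 value was not tested.

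Nlrc4 (ENSMUSG00000039193, chr17:74425438-74459142) joins NAIP receptors that bind flagellin and the secretion needles of bacteria. It was at 28.1, 27.5, 31.6, 30.5 and 28.7 CPM in ARG1+ cells and at 29.8, 29.5, 26.2, 35.8 and 29.5 CPM in ARG1- cells of m2, m6, m234, m235 and m236. The ranges overlapped, and m234 went against the other 4 animals, with the higher value in ARG1+ cells. The log2 fold change was -0.05 (95% confidence interval -0.22 to 0.12, adjusted p = 0.713 by edgeR) and changed sign to 0.02 without the ARG1- library of m235. Without the ARG1- library of m234 it was -0.09 (adjusted p = 0.463 by edgeR).

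Pycard (ENSMUSG00000030793, chr7:127989708-127993867) encodes ASC, which links sensor to caspase-1. It stood at 118, 111, 99.8, 132 and 122 CPM in ARG1+ cells and at 106, 109, 84.3, 118 and 117 CPM in ARG1- cells of m2, m6, m234, m235 and m236. The groups overlapped and m234 was lowest in both, yet ARG1+ cells were the higher in all 5 animals. Its log2 fold change of 0.12 was not called when groups alone were fitted (95% confidence interval -0.09 to 0.33, adjusted p = 0.438), and was called with the animal as a block (0.12, adjusted p = 0.0388, edgeR). That call held in 2 of 5 blocked fits without 1 animal, with adjusted p up to 0.122 in the others, and without the ARG1- library of m234 the unblocked value was 0.05. Of the exon bases of Pycard, 12.8% lie opposite those of Gm45205, and whether counting used strand was not given in the sources used here.

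Casp1 (ENSMUSG00000025888, chr9:5298508-5307290), the protease that all ASC-dependent inflammasomes share, was at 56.8, 55.5, 55.7, 74.2 and 57.8 CPM in ARG1+ cells and at 53.3, 55.4, 53.1, 68.0 and 56.6 CPM in ARG1- cells of m2, m6, m234, m235 and m236. Both fractions of m235 stood well above the other 8 libraries, which lay between 53.1 and 57.8 CPM. The log2 fold change was 0.07 (95% confidence interval -0.14 to 0.27, adjusted p = 0.685 by edgeR) and -0.02 without the ARG1+ library of m235.

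Casp4 (ENSMUSG00000033538, chr9:5308828-5336783), which encodes caspase-11 of the non-canonical pathway, starts shortly after the end of Casp1 on the same strand. Its levels were 49.7, 45.2, 54.4, 69.6 and 52.2 CPM in ARG1+ cells and 59.2, 61.7, 77.4, 75.0 and 61.4 CPM in ARG1- cells of m2, m6, m234, m235 and m236. All 5 animals had less Casp4 in ARG1+ cells, but the ARG1+ library of m235 lay above 3 of the ARG1- libraries, so the groups overlapped. The log2 fold change was -0.30 (95% confidence interval -0.55 to -0.05, adjusted p = 0.106 by edgeR), and the exact two-sided permutation test gave p = 0.0476 before any adjustment. With the animal as a block, the log2 fold change was -0.31 and the adjusted p 0.00267 by edgeR, and the call held in 5 of 5 blocked fits without 1 animal. In the fit on groups only, leaving out the ARG1+ library of m235 gave -0.41 (adjusted p = 0.0189) and leaving out both libraries of m235 gave -0.35 (adjusted p = 0.0368). The other omissions left Casp4 without a call, among them that of the ARG1- library of m234, its highest value (-0.24, adjusted p = 0.189), and that of the ARG1+ library of m6, which gave the smallest change (-0.24, adjusted p = 0.212).

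The count of Casp4 relative to Casp1, its neighbour, was 0.814 to 0.976 in ARG1+ libraries and 1.09 to 1.46 in ARG1- libraries, with no overlap between the groups. This ratio was chosen after the values were seen and was not tested. Casp1 and Casp4 shared no stretch of 50 bases with each other or with any other gene in the annotation used, so that reads of this length did not fall on both.

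Gsdmd (ENSMUSG00000022575, chr15:75862327-75867408) encodes gasdermin D, the substrate that carries out pyroptosis. It stood at 112, 124, 115, 120.1 and 124 CPM in ARG1+ cells and at 139, 149.9, 150.2, 159 and 157 CPM in ARG1- cells of m2, m6, m234, m235 and m236. The groups did not overlap, and the spread within each was the narrowest, relative to its mean, of the members called lower. Means were 119 ± 5.38 and 151 ± 8.09 CPM (SD, n = 5 each), or 21.3% lower in ARG1+ cells (95% confidence interval of the change -27.4% to -14.6%). This gave a log2 fold change of -0.34 (SE 0.05, adjusted p = 0.00212 by edgeR), with p = 0.00794 in the exact two-sided permutation test. Animals differed little, from -0.41 in m235 to -0.27 in m6 on the log2 scale. Altogether 4 members (Aim2, Mefv, Casp4 and Gsdmd) were lower in ARG1+ cells in 5 of 5 animals, as were 21% of all genes, and 3 (Nlrp3, Pycard and Casp1) were higher in 5 of 5, as were 20% of all genes.

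**Figure D2:**
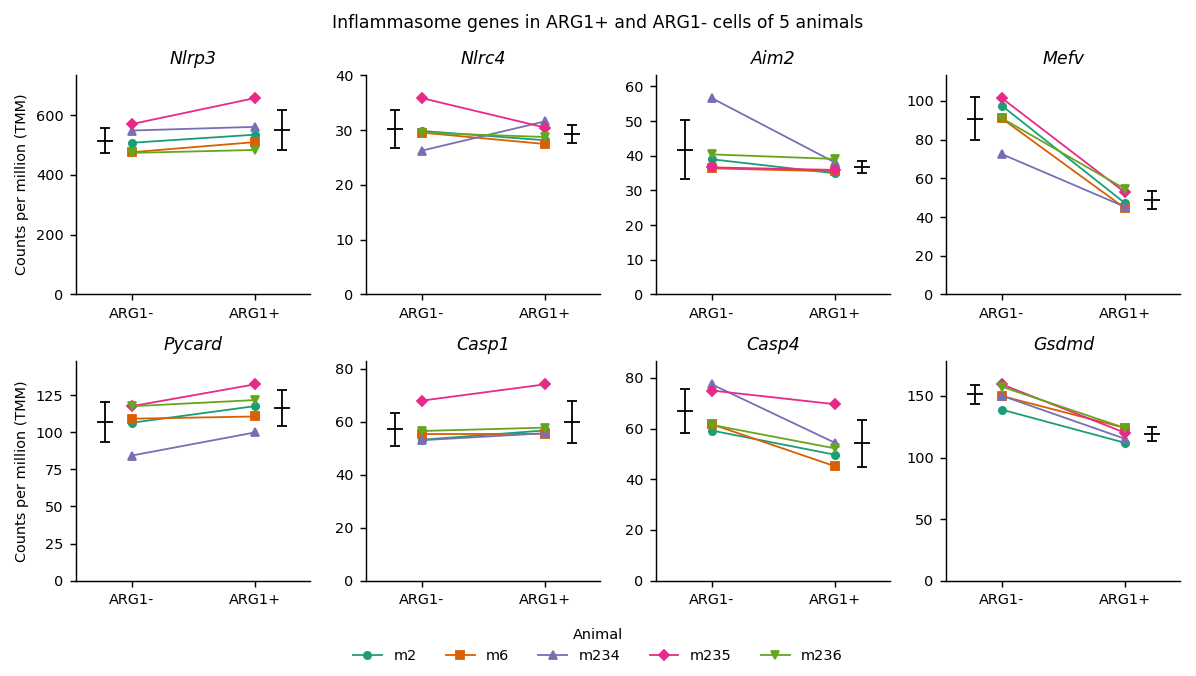
CPM of each member in ARG1- (left) and ARG1+ (right) libraries, with lines joining the libraries of 1 animal and black bars for the mean ± SD of 5 libraries. Mefv (44.6 to 54.5 against 72.5 to 101 CPM) and Gsdmd (112 to 124 against 139 to 159 CPM) separate fully, Casp1 is high in both libraries of m235, and Aim2 in the ARG1- library of m234.

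To compare members with each other, CPM was divided by the length of the merged exons in kilobases. These lengths were those of the annotation, 3800 bases from 1 transcript for Pycard, and the transcripts that the cells used were not examined. The order of the members and their shares of the sum depend on these lengths. On this scale Nlrp3 led in both groups, at 135 ± 16.5 CPM per kilobase in ARG1+ and 127 ± 10.6 in ARG1- cells (SD, n = 5). Gsdmd was next in level, at 66.4 ± 3.0 and 84.4 ± 4.51, and did not overlap Nlrp3 or the member after it in either group. Nlrc4 came last, at 6.09 ± 0.35 and 6.28 ± 0.72 CPM per kilobase, below Aim2 at 12.9 ± 0.63 and 14.7 ± 2.98 without overlap.

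The middle of the order differed between the groups. In ARG1- cells Casp4 (46.7 ± 5.96 CPM per kilobase) was above Casp1 (38.3 ± 4.14) in 5 of 5 libraries although their ranges overlapped, whereas in ARG1+ cells Casp1 (40.1 ± 5.34) was above Casp4 (37.8 ± 6.46) in 4 of 5 and the ranges overlapped as well. Mefv stood level with Pycard in ARG1- cells (27.9 ± 3.42 and 28.1 ± 3.58), where Pycard was the higher in 2 of 5 libraries, and below it in ARG1+ cells (15.0 ± 1.38 and 30.6 ± 3.19), without overlap. In ARG1+ cells the range of Mefv met that of Aim2, from which it was separate in ARG1- cells. Nlrp3 made up 35.9% to 40.9% of the summed length-scaled level of the 8 members in ARG1+ libraries and 32.0% to 35.7% in ARG1- libraries.

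**Figure D3:**
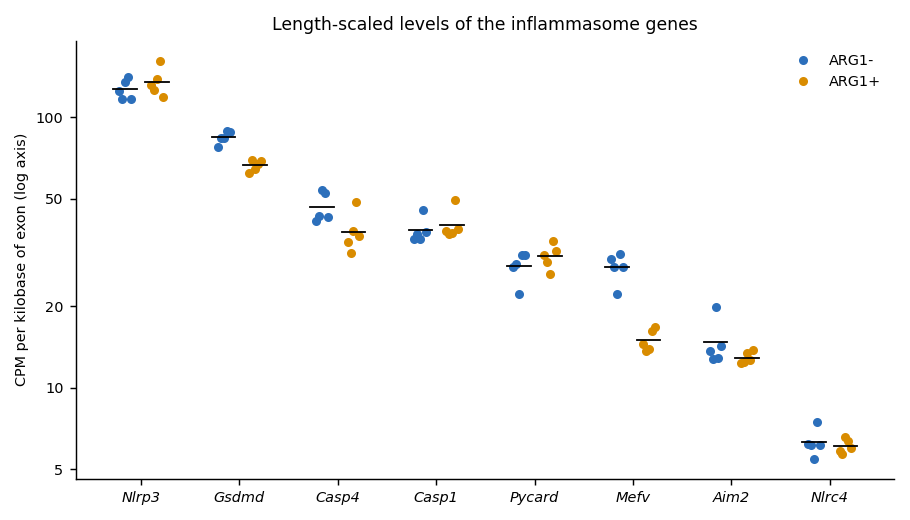
CPM per kilobase of exon on a log axis for each member, with 1 point per library and a line at the mean of 5, ARG1- in blue and ARG1+ in orange. Nlrp3 is highest and Nlrc4 lowest in both groups, and Mefv falls from about the level of Pycard (27.9 CPM per kilobase) to 15.0.

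Counts of Mefv relative to Nlrp3 were 0.0802 to 0.113 in ARG1+ and 0.132 to 0.192 in ARG1- libraries. Those of Gsdmd relative to Pycard were 0.908 to 1.15 and 1.31 to 1.78, and neither pair of ranges overlapped. The counts of Aim2 relative to Nlrp3, at 0.0547 to 0.0808 in ARG1+ and 0.0643 to 0.103 in ARG1- libraries, did overlap. How often other pairs of genes separate in this way was not counted. These ratios too were chosen after the values were seen and carry no test.

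Among 85 other genes of the pathway, placed in 8 lists by role, 75 were tested, and 4 were higher, 11 lower and 60 not called (edgeR, adjusted p below 0.05 over all genes). As shares of the 75 these were 5.33% higher and 14.7% lower, beside 6.82% and 6.15% of all genes. The blocked fit called 13 higher and 26 lower, or 17.3% and 34.7%, beside 16.8% and 18.3% of all genes. The same shares of all genes are the background for the counts of each list below. Leaving out any 1 library or animal brought the higher genes down to 1 to 3, while the lower genes ranged from 3 to 16. The median log2 fold change over the 75 was -0.03.

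The other sensors held 8 tested genes, with 0 higher and 0 lower. Ifi204, a DNA-binding member of the Aim2 family and the most abundant of the list, averaged 226 ± 66.5 CPM in ARG1+ libraries against 305 ± 51.9 CPM in ARG1- libraries (log2 fold change -0.43, adjusted p = 0.121 by edgeR). In the blocked fit Ifi204 (adjusted p = 4.27e-04) and the nucleic acid sensor Zbp1 (-0.53, adjusted p = 2.02e-05) were lower. Near-identical relatives of Ifi204 can share its reads, which leaves its value uncertain. Shared stretches were measured for the members only, so this limit was not examined for Ifi204 or the other genes of the lists. Nlrp6, Nlrp10 and Nlrp12 did not pass the filter.

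Among 14 activation partners, 1 was higher and 4 were lower, and the blocked fit called 2 higher and 7 lower, adding P2rx7 (0.15) as higher and Gbp2, Txnip and Rhoa (-0.12) as lower. The potassium channel gene Kcnk13 rose by 0.38 on the log2 scale (adjusted p = 0.0368), and the genes that fell were Gbp3, Gbp5, Irgm1 and Ifi47, interferon-inducible GTPases of the GBP and IRG families. Of these, Ifi47 changed most, at 128 ± 20.4 CPM in ARG1+ against 192 ± 37.9 CPM in ARG1- cells (log2 fold change -0.59, adjusted p = 0.0179 by edgeR). Gbp2, the most abundant of the list, was at 588 ± 143 and 877 ± 192 CPM (-0.58, adjusted p = 0.0608, and 9.52e-06 with the animal as a block). Nek7, the kinase that binds NLRP3, had a log2 fold change of 0.02 (adjusted p = 0.937), and Txnip, linked to NLRP3 under oxidative stress, one of -0.21 (adjusted p = 0.305, and 0.00306 with the block).

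Genes described as restraining inflammasome signalling gave 8 tested, 1 higher and 0 lower, whereas the blocked fit called 4 higher and 1 lower. The gene called in both fits was Nlrc3, which encodes an NLR protein that dampens innate signalling, with 5.64 ± 1.06 CPM in ARG1+ against 2.59 ± 0.36 CPM in ARG1- cells (log2 fold change 1.13, adjusted p = 0.00143 by edgeR). It was the only gene of the lists past both limits, at a low level. Tnfaip3, which encodes the ubiquitin-editing enzyme A20, was the most abundant at 759 ± 48.1 and 698 ± 41.9 CPM (0.12, adjusted p = 0.231, and 0.0416 with the block). The block also called Cd300a (0.31, adjusted p = 0.00215) and Dpp8 (0.13, adjusted p = 0.0126) higher and Trim30a (-0.38, adjusted p = 0.00107) lower.

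The 7 other caspase genes gave 0 calls in either fit. Casp8, which can also cut gasdermin D, stood at 93.6 ± 6.40 and 98.5 ± 6.15 CPM (log2 fold change -0.07, adjusted p = 0.453), and Casp12, the other inflammatory caspase gene of the locus, at 3.80 ± 0.58 and 3.31 ± 0.64 CPM (0.19, adjusted p = 0.468).

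The substrates and pores gave 0 calls among 6 tested genes. Il1b, the classical caspase-1 substrate, averaged 2279 ± 516 CPM in ARG1+ against 2272 ± 449 CPM in ARG1- cells, with a log2 fold change of 0.00 (SE 0.17, adjusted p = 0.992 by edgeR). Il18, the other substrate, was at 6.11 ± 1.61 and 8.33 ± 2.18 CPM (-0.47, adjusted p = 0.138), and Ninj1, which ruptures the plasma membrane after gasdermin D, at 251.7 ± 24.0 and 206 ± 37.3 CPM (0.29, adjusted p = 0.126). In the blocked fit Il18 was lower (adjusted p = 0.0310) and Ninj1 (adjusted p = 0.00263) and Il1a higher.

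Of 14 tested genes for membrane repair by the ESCRT machinery, which removes gasdermin pores, Chmp5 rose by 0.22 on the log2 scale (adjusted p = 0.0496). Chmp4b, the most abundant of them, fell by 0.24 on the log2 scale, from 355 ± 23.0 to 300.4 ± 27.0 CPM (adjusted p = 0.0468 by edgeR). Both lay close to the threshold. The blocked fit called 4 higher, adding Chmp1a, Chmp3 and Chmp7 (0.11, 0.12 and 0.15), and 2 lower, adding Chmp2a (-0.16).

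The transcription and priming list had 6 of 13 genes lower and 0 higher, and the blocked fit called 11 lower and 0 higher. Over all genes, 6.15% were lower in the fit on groups only and 18.3% in the blocked fit. The lower genes were Spi1, the myeloid transcription factor PU.1, Nfkb1 and Rela, which encode NF-kB subunits, Tlr2, and the Toll-like receptor adaptors Myd88 and Ticam1. Ticam1 changed most, with 15.5 ± 1.38 CPM in ARG1+ against 23.7 ± 3.07 CPM in ARG1- cells (log2 fold change -0.60, adjusted p = 0.00217 by edgeR). Tlr2 was the most abundant, at 956 ± 51.4 and 1194 ± 62.7 CPM (-0.32, adjusted p = 0.00660). Irf2, a transcription factor that Gsdmd expression depends on, was at 121 ± 9.11 and 131 ± 12.3 CPM (-0.11, adjusted p = 0.319, and 0.0223 with the block), and Irf8 had a log2 fold change of -0.28 (adjusted p = 0.0905, and 3.03e-04 with the block). The median of this list was -0.27.

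In the necroptosis list, Fadd rose by 0.25 on the log2 scale (adjusted p = 0.0477 by edgeR) from 8.87 to 10.6 CPM, and the other 4 genes were not called. Cflar, the caspase-8 regulator and the most abundant of them, had a log2 fold change of -0.31 (adjusted p = 0.0583, and 3.14e-04 with the block), and Ripk1 was also lower in the blocked fit (-0.12, adjusted p = 0.0285).

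**Figure D4:**
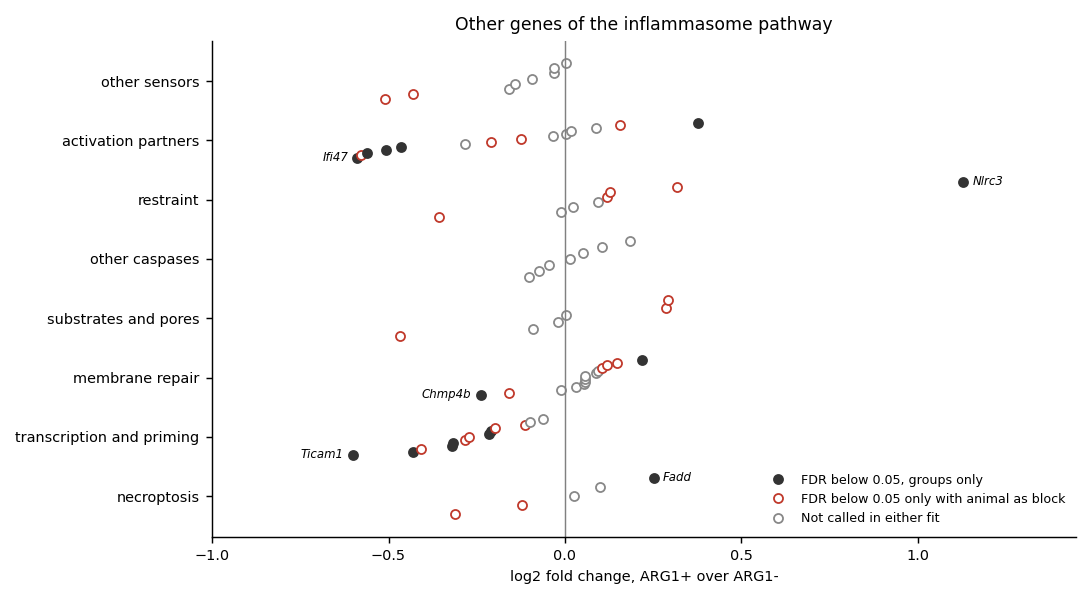
Log2 fold changes in ARG1+ over ARG1- cells of the 75 tested pathway genes by list, with 1 point per gene, filled black where the adjusted p was below 0.05 on groups only, red where this was so only with the animal as a block. Nlrc3 lies farthest right at 1.13, and the transcription and priming list lies left of zero throughout.

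Markers of other cells moved with the groups as well, with calls from the fit on groups only. Of 7 monocyte genes, Ccr2, Plac8 and Vcan were lower in ARG1+ cells, at log2 fold changes of -1.12, -2.19 and -1.005. Not called were Ly6c2 (-0.45) and, in the other direction, F13a1 (0.78, adjusted p = 0.0511 by edgeR), Chil3 (0.34) and Hp (0.19). The sum of the 7 was 2864 to 9565 CPM in ARG1+ and 2804 to 8274 CPM in ARG1- libraries. Its largest part was Chil3, with means of 3543 and 2799 CPM. Border macrophage genes Pf4 (1.88) and Mrc1 (1.16) were higher, with sums of 552 to 777 and 357 to 608 CPM, although Lyve1 and Cd163 averaged below 0.1 CPM in both groups. Of the 10 dendritic cell genes 4 were lower, namely Flt3, Dpp4, Ccr7 and Zbtb46 (-3.59, -3.55, -2.76 and -1.65), with sums of 18.4 to 34.2 and 34.7 to 127 CPM that did not overlap. Microglial genes summed to 790 to 1219 and 876 to 3202 CPM, with P2ry13 lower among 8. The part of these differences in the lower Mefv, Casp4 and Gsdmd was not tested.

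Neutrophils, which carry several inflammasome genes, were outside the gate. The 12 neutrophil genes summed to 302 to 453 CPM in ARG1+ and 263 to 372 CPM in ARG1- libraries, and most of that sum was Mmp8 (206 and 114 CPM on average, adjusted p = 0.0878), Csf3r (145 and 184 CPM, adjusted p = 0.175) and S100a8 (24.0 and 20.05 CPM, adjusted p = 0.560). Ly6g averaged 0.0566 CPM in ARG1+ cells and 0.0285 CPM in the other group, with Retnlg at 0 in 8 of 10. S100a9 alone of the 4 tested neutrophil genes was lower (-3.40), from 2.44 to 0.242 CPM. T and NK cell genes summed to 1.09 to 1.99 and 1.14 to 2.97 CPM. B and plasma cell genes summed to 1.94 to 4.28 and 4.35 to 10.8 CPM, with Jchain lower at -2.87. Oligodendrocyte genes summed to 116 to 151 and 103 to 152 CPM with 0 calls among 4.

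After the group means were taken out, the genes that varied most like 4 of the members over the 10 libraries were named as a description, since 5 animals lie behind them. For Nlrp3 they were Gm9845, Hnrnpdl and Txnip (Pearson r 0.981, 0.967 and 0.964), and for Mefv Tsn, Slc25a20 and Gm43328 (0.960, 0.954 and 0.954). For Casp1 they were Azin1, Ifi214 and Pnp (0.990, 0.983 and 0.982), and for Casp4 Slfn9, Ikbkg and Tdrd7 (0.966, 0.955 and 0.943). Among the members themselves, r was 0.86 between Nlrp3 and Casp4, 0.86 between Mefv and Pycard, and -0.73 between Aim2 and Pycard, and the libraries of m235 and the ARG1- library of m234 stood at the ends of several of these genes.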

How the data were processed

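Raw counts per gene, deposited by the authors, were used for 10 libraries (50-base single-end, strand-marking kit). Per the study's methods and the submitters' processing notes, the authors aligned reads with STAR (2.7.10b) to GRCm38 with a basic Ensembl annotation and counted them with summarizeOverlaps in Union mode without secondary alignments; Picard is also named. The use of strand in counting was not given in the sources used here. Groups came from the sample labels; no sample column was left unused (0).

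Genes above 1 CPM in 3 or more libraries (13740, holding 99.8% of counts) were tested with edgeR 4.0.16 (R 4.3.3; TMM, quasi-likelihood, groups only, 2-sided) with Benjamini-Hochberg adjustment over all of them; limma 3.58.1 and DESeq2 1.42.0 served as alternatives. The fits were tested on simulated data, drawn without an effect of the animal and with planted changes larger than that of any member. Those data therefore cannot show how the fits behave with paired libraries or with small changes. Plotted levels are CPM on TMM library sizes. Permutation tests used log2 CPM with a prior count of 2 and exchanged libraries between animals, without the pairing. Same-numbered libraries came from the same animal: correlations of their deviations from group means were 0.361 to 0.664, against at most 0.0675 between animals. A fit with the animal as a block is therefore given for the members and the role lists. Marker genes were called from the fit on groups only, which does not use the pairing. Exon lengths, overlaps and shared stretches of 50 bases came from GENCODE M21 basic (GRCm38), promoters from RefSeq (GRCm38.p6), symbols and coordinates from the deposited table.

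Members, role lists and marker lists were chosen with earlier results of these data known. All members were described in full. From each role list the text names genes past both limits, the most abundant tested gene, the most changed called gene and Il1b, Il18, Casp8, Casp12, Nek7, Txnip, Ninj1, Irf2 and Irf8; from marker lists the sums and genes past both limits; and for Nlrp3, Mefv, Casp1 and Casp4 the 3 genes of highest r. Other genes named where a count was 5 or fewer, or singled out, were chosen after their values were seen. A further monocyte marker is not reported here. Depth of 8396863 to 35455643 counts gave 223 to 21661 counts per member and library.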

Additional observations from a re-analysis of the deposited data

Results flagged for a closer look

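Of 16 groups of 5 libraries (8 members in ARG1+ and ARG1- cells), 3 held a library whose gap to its nearest neighbour, divided by the range of the group, exceeded 0.71, Dixon's 95% critical value, which chance passes in about 1 group in 20. Aim2 in the ARG1- library of m234 was at 56.6 CPM against 36.3 to 40.4 CPM in the other 4. Casp1 in the ARG1+ library of m235 was at 74.2 CPM against 55.5 to 57.8 CPM, and in the ARG1- library of the same animal at 68.0 CPM against 53.1 to 56.6 CPM.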

How the results depend on the processing

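Mefv and Gsdmd were lower and called in all 22 other fits (other tools, scalings and filters, the block, and omission of single libraries or animals), with log2 fold changes of -0.96 to -0.85 and -0.38 to -0.32. Requiring an absolute log2 fold change above 1 as well left 0 members lower, and 77 higher and 122 lower over all genes. With the animal as replicate block, 1 member was higher, pathway calls were 13 higher and 26 lower, and calls over all genes 2307 and 2519; the block changed no call of a member other than Pycard and Casp4.

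Scaling by total counts without TMM gave 1 pathway gene higher and 1282 of all genes lower, so that 35.4% of calls were higher, against 52.6% with TMM. DESeq2 called 1307 genes lower, and filterByExpr left 2 pathway genes higher. The causes were not tested. Leaving out each library or animal gave 0 members higher and 2 to 3 lower, 1 to 3 pathway genes higher and 3 to 16 lower, and 360 to 1037 genes higher and 284 to 911 lower over all genes; the lowest pathway count of lower genes (3) and both lowest counts over all genes came without animal m6. In the same settings Nlrc4 ran from -0.12 to 0.0241 (positive without the ARG1- library of m235, and at 0.0085 without both of its libraries) and Casp1 from -0.0229 (without the ARG1+ library of m235) to 0.14. With the block and without m235, a fit added after the data were seen, Nlrc4 was at 0.000196.

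Counts of 223 to 21661 per member and library limit Nlrc4 most, in the shallow ARG1- library of m234. Input cell number and group cannot be told apart.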
